A study of Oryza sativa with 6 samples.

Results

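Cellulose synthases of the CESA family are the enzymes that build the cellulose of plant cell walls, and 8 rice genes of this family were followed here. They were chosen by locus as 5 genes of the primary wall (CESA1, CESA3, CESA5, CESA6 and CESA8) and 3 genes of the secondary wall (CESA4, CESA7 and CESA9). The rule names loci by wall class, and was set with earlier results of these data known. All 8 were among the 27397 genes of the authors' normalized table, and all 8 passed the filter on low values that left 24149 genes for testing.

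CESA proteins sit in the plasma membrane, where several different isoforms assemble into one complex and each links glucose from UDP-glucose into a growing β-1,4-glucan chain. One set of isoforms makes the thin primary wall of growing and dividing cells. Another set makes the thick secondary wall of fibres and water-conducting cells, laid down once a cell has stopped expanding. In rice, mutants lacking CESA4, CESA7 or CESA9 have brittle culms.

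The study compared pine1 knockout plants (allele pine1-1a) of the rice cultivar Nipponbare with Nipponbare wild-type plants by RNA sequencing. Per the labels, PINE1 is a transcription factor gene linked to keeping internodes short, and both genotypes grew untreated in soil under 16 h days. Each genotype had 3 samples, taken 20 days after germination, and each sample pooled the basal 1 cm of 8 plants, a piece that holds stem and shoot apical meristem. A single allele stood for the knockout, and the labels give no separate growth batches, so each p-value reflects only the spread among such pools, which may be technical.

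The libraries held 27918842 to 31997002 recovered reads in pine1 and 28699032 to 36250239 in wild type. PINE1 itself (Os12g0617000) averaged 4805 ± 553 normalized reads in pine1 libraries and 3396 ± 395 in wild-type libraries (SD, n = 3 each), giving a log2 fold change of 0.50 (limma adjusted p = 0.021). Transcript level therefore did not check the knockout label, because the labels do not say which part of the gene the allele alters. The meristem markers OSH1 and OSH15 were read in every library, with summed levels of 2202 to 2912 normalized reads in pine1 and 928 to 1293 in wild type. Both rose in pine1, with log2 fold changes of 1.30 for OSH1 and 1.08 for OSH15 (limma adjusted p = 0.0032 and 0.0014).

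Of the 3 secondary wall genes, CESA4 rose in pine1 and the other two did not pass the test, while none of the 5 primary wall genes passed it in either direction. A gene was called where limma, run on log2(normalized reads + 1), gave an adjusted p under 0.05 over all 24149 genes. Over all those genes 970, or 4.02%, were called higher in pine1 and 589, or 2.44%, were called lower. The median log2 fold change was 0.74 for the 3 secondary wall genes and -0.08 for the 5 primary wall genes, beside -3.6e-05 over all genes tested. In bulk tissue, more cells of a wall-forming type and more RNA per such cell cannot be told apart.

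CESA4 (Os01g0750300, on chromosome 1), a subunit of the secondary wall complex, had 3944, 3681 and 4942 normalized reads in pine1 replicates 1, 2 and 3, against 2101, 2582 and 2829 in wild-type replicates 1, 2 and 3. Every pine1 library lay above every wild-type library, and the highest was pine1 replicate 3. CESA4 averaged 4189 ± 665 normalized reads in pine1 and 2504 ± 370 in wild type (SD, n = 3 each), and its log2 fold change of 0.74 (SE 0.13, limma adjusted p = 0.0096) is a 1.67-fold difference with a 95% interval of 1.37 to 2.04. The call held under each of the 14 other settings tried, with adjusted p-values of 1.9e-08 to 0.031. The authors' deposited table also lists CESA4, as a log2 of wild type over pine1 of -0.74 with an adjusted p of 1.16e-08.

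CESA9 (Os09g0422500, chromosome 9), a further subunit of the secondary wall complex, had 79.2, 65.7 and 125 normalized reads in the 3 pine1 libraries, against 45.9, 57.7 and 41.9 in the 3 wild-type libraries. The genotypes did not overlap, and pine1 replicate 3 again held the highest value. Its log2 fold change of 0.84 (SE 0.26, 95% interval 0.26 to 1.42) did not pass the test (limma adjusted p = 0.096), and it passed under none of the settings in which it was tested. The gene rested on 258 recovered reads in pine1 and 151 in wild type, each summed over 3 libraries.

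CESA7 (Os10g0467800, chromosome 10), the remaining secondary wall subunit, had 17.4, 12.1 and 21.4 normalized reads in the 3 pine1 libraries, against 9.83, 9.61 and 13.7 in the 3 wild-type libraries. The ranges overlapped, since pine1 replicate 2 lay below wild-type replicate 3. Its log2 fold change was 0.56, with a 95% interval of -0.20 to 1.32 (limma adjusted p = 0.39). With 49 recovered reads in all pine1 libraries and 35 in all wild-type libraries, the interval held both 0 and a log2 fold change of the size seen for CESA4.

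**Figure D1:**
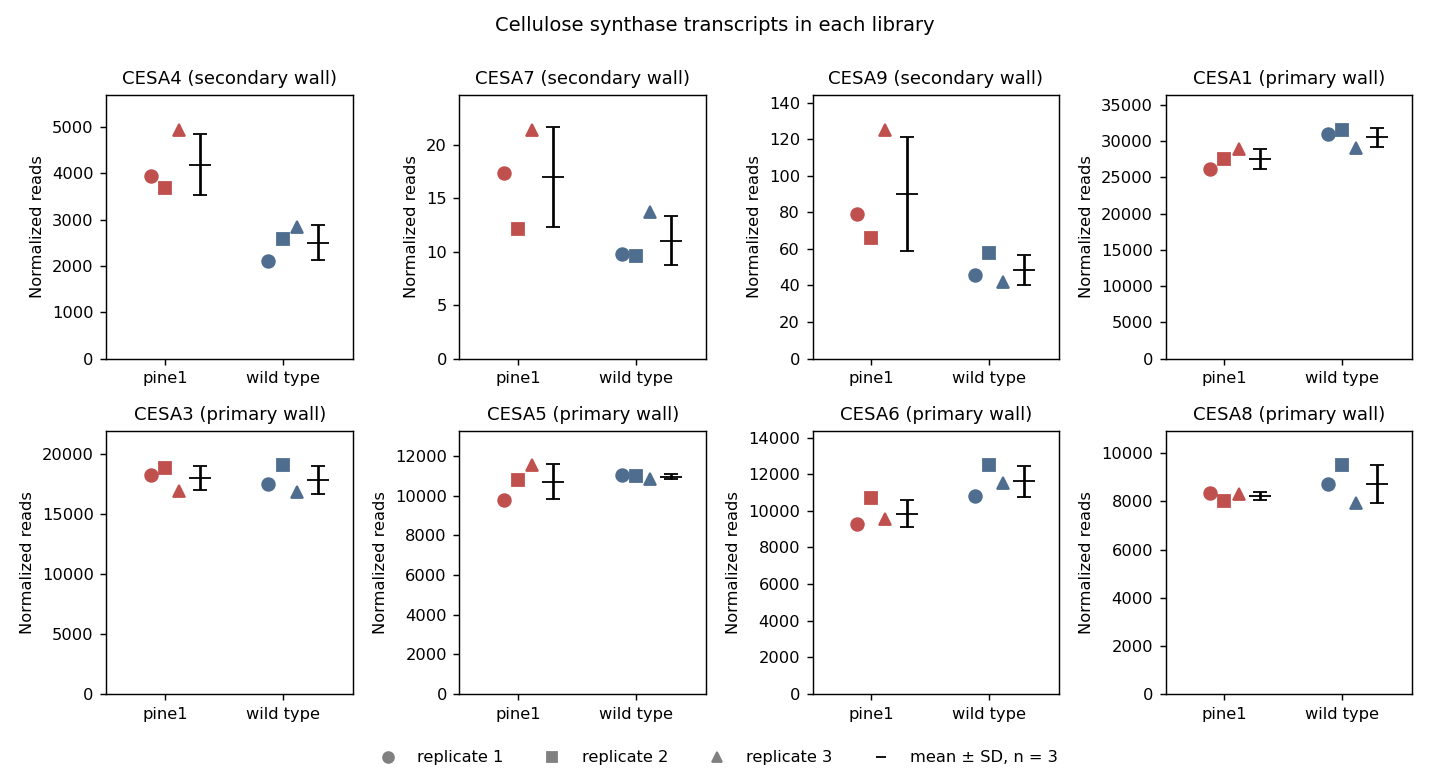
Normalized reads of each cellulose synthase gene (vertical axis, linear and scaled separately for each gene) in the 3 pine1 libraries, drawn left, and the 3 wild-type libraries, drawn right. Points are libraries and bars mark the mean ± SD of each genotype. CESA4 lies between 3681 and 4942 in pine1 and between 2101 and 2829 in wild type.

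CESA1 (Os05g0176100, chromosome 5), a catalytic subunit of the primary wall complex, had 26143, 27552 and 28983 normalized reads in the pine1 libraries, against 30926, 31586 and 29103 in the wild-type libraries. The pine1 values all lay below the wild-type values, though pine1 replicate 3 and wild-type replicate 3 nearly met. The log2 fold change was -0.15 (SE 0.05, 95% interval -0.27 to -0.03) and did not pass the test (limma adjusted p = 0.14).

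CESA6 (Os07g0252400, chromosome 7) also belongs to the primary wall set. It had 9275, 10692 and 9548 normalized reads in pine1 libraries, against 10795, 12495 and 11515 in wild-type libraries. Again no pine1 library reached the lowest wild-type library. The log2 fold change of -0.24 (SE 0.07, 95% interval -0.39 to -0.08) missed the threshold in limma (adjusted p = 0.081). CESA6 was called lower in pine1 by DESeq2 (adjusted p = 0.022), by limma with replicate number as a block (0.018) and by limma without pine1 replicate 2 (0.046). The authors' deposited table lists CESA6 with a log2 of wild type over pine1 of 0.24 and an adjusted p of 0.0229.

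CESA3 (Os07g0424400, chromosome 7), another primary wall subunit, had 18194, 18787 and 16870 normalized reads in pine1 libraries, against 17489, 19042 and 16761 in wild-type libraries. The genotypes interleaved, and the log2 fold change was 0.02 with a 95% interval of -0.12 to 0.15 (limma adjusted p = 0.92). CESA5 (Os03g0837100, chromosome 3) had 9775, 10759 and 11535 normalized reads in pine1 libraries, against 11035, 10996 and 10840 in wild-type libraries.
The pine1 libraries of CESA5 spread on both sides of the closely spaced wild-type libraries, with a log2 fold change of -0.04 and a 95% interval of -0.17 to 0.10 (limma adjusted p = 0.77). CESA8 (Os07g0208500, chromosome 7) had 8359, 8025 and 8301 normalized reads in pine1 libraries, against 8711, 9509 and 7948 in wild-type libraries. Here too the genotypes overlapped, with a log2 fold change of -0.08 and a 95% interval of -0.22 to 0.06 (limma adjusted p = 0.53). For these 3 genes the intervals hold no change as large as the 0.74 of CESA4.

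Groups failed to overlap with pine1 higher in 2 of the 3 secondary wall genes, where the share over all genes tested was 13.5%. They failed to overlap with pine1 lower in 2 of the 5 primary wall genes, against 12.9% over all genes tested. No secondary wall gene had its pine1 libraries all below wild type, and no primary wall gene had them all above.

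**Figure D2:**
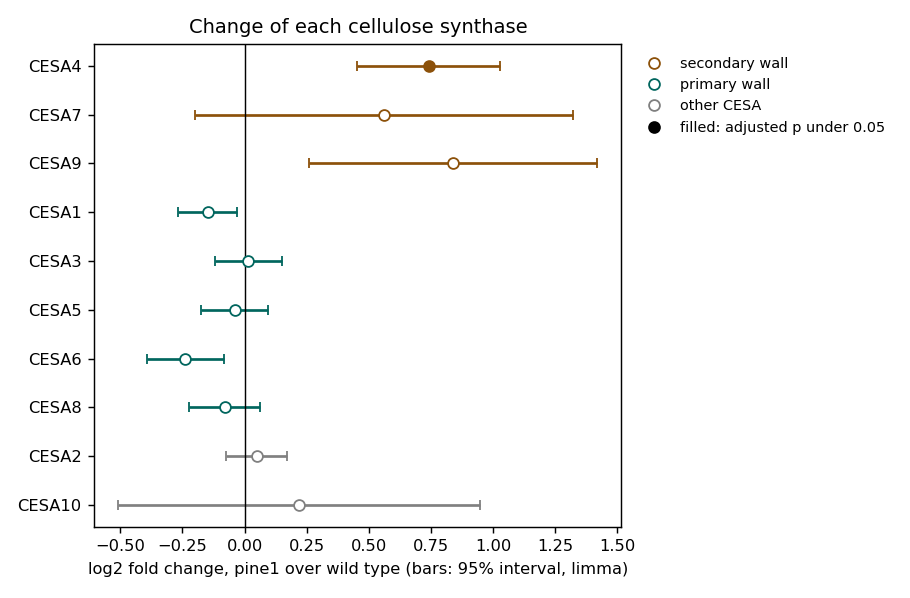
Log2 fold change of pine1 over wild type (horizontal axis) for the 8 genes and for CESA2 and CESA10, with 95% intervals from limma on 3 libraries per genotype. Filled points have an adjusted p under 0.05. CESA4 is the only filled point, at 0.74, and the 5 primary wall genes lie between -0.24 and 0.02.

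The classes were then compared within each library, where the size factor of the library cancels. Summed normalized reads of the 3 secondary wall genes were 4041, 3759 and 5089 in pine1 libraries, against 2157, 2649 and 2885 in wild-type libraries. Summed normalized reads of the 5 primary wall genes were 71747, 75815 and 75237 in pine1 libraries, against 78956, 83629 and 76167 in wild-type libraries. The pine1 sums thus lay wholly above wild type for the secondary wall class and wholly below it for the primary wall class. For the primary wall class the gap was small, 75815 in pine1 replicate 2 against 76167 in wild-type replicate 3.

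For every 100 primary wall reads there were 5.63, 4.96 and 6.76 secondary wall reads in pine1 replicates 1 to 3, against 2.73, 3.17 and 3.79 in wild-type replicates 1 to 3. The lowest pine1 library was above the highest wild-type library. The means were 5.78 ± 0.913 in pine1 and 3.23 ± 0.531 in wild type (SD, n = 3 each), a ratio of 1.79 ± 0.408 (SD carried over from both genotypes). This ratio is a description with no test, since its members were chosen with results of these libraries known. Reads were not divided by transcript length, so the ratio compares libraries and does not give the relative amounts of the 2 classes.

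Since sums weight abundant reads, the same comparison was made with every gene weighted equally. The mean log2 fold change was 0.71 for the 3 secondary wall genes and -0.10 for the 5 primary wall genes. The difference was 0.81 ± 0.391 (SD carried over from both genotypes). With geometric means in place of sums, the pine1 to wild-type ratio of the class ratios was 1.81. CESA4 supplied 97.6% ± 0.409 of the secondary wall reads in pine1 and 97.7% ± 0.367 in wild type (SD, n = 3 each), so the summed ratio mostly follows this gene. Left without CESA4, a choice made after the data were seen, the reads of CESA7 and CESA9 came to 0.144 ± 0.0468 per 100 primary wall reads in pine1 and 0.0746 ± 0.00516 in wild type (SD, n = 3 each), without overlap between genotypes.

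**Figure D3:**
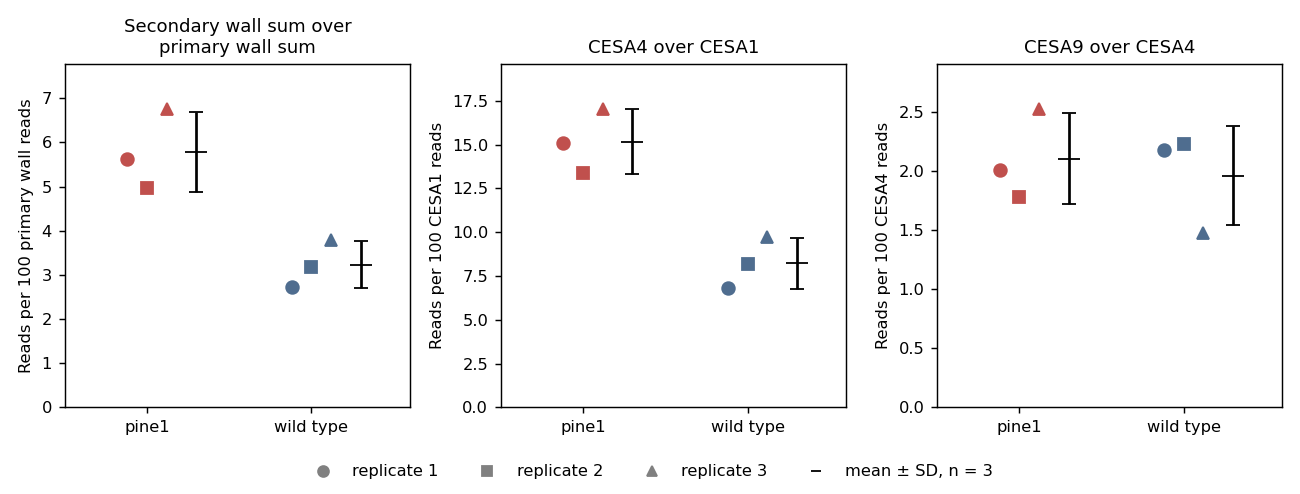
Secondary wall reads per 100 primary wall reads in each library (left panel, vertical axis), with pine1 left and wild type right. Further panels show CESA4 per 100 CESA1 reads and CESA9 per 100 CESA4 reads. Bars mark the mean ± SD of 3 libraries. In the left panel the pine1 libraries lie between 4.96 and 6.76 and the wild-type libraries between 2.73 and 3.79.

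The make-up of each class was also compared between genotypes, as shares of reads. CESA9 gave 2.11 ± 0.384 reads per 100 CESA4 reads in pine1 and 1.97 ± 0.421 in wild type (SD, n = 3 each), and the genotypes overlapped. CESA7 gave 0.401 ± 0.0624 reads per 100 CESA4 reads in pine1 and 0.441 ± 0.0601 in wild type (SD, n = 3 each), also with overlap. Among primary wall reads, the share of CESA1 was 37.1% ± 1.23 in pine1 and 38.4% ± 0.716 in wild type, and that of CESA6 was 13.2% ± 0.756 in pine1 and 14.6% ± 0.789 in wild type (SD, n = 3 each). The shares of all 5 primary wall genes overlapped between genotypes. CESA genes share sequence, and the sources used here do not say how reads fitting several genes were counted, so reads may be exchanged between members.

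The library with the highest value was looked up for each gene. All 3 secondary wall genes were highest in pine1 replicate 3, CESA7 with only 19 recovered reads there. Of the 5 primary wall genes, 4 were highest in wild-type replicate 2. The exception was CESA5, highest in pine1 replicate 3. For CESA3 the lead was small, 19042 normalized reads against 18787 in pine1 replicate 2. The share of all genes highest in these libraries was not worked out, so the counts only describe these 8 genes. Without pine1 replicate 3, CESA4 was still called, and the ratio of secondary to primary wall reads in pine1 over wild type was 1.64.

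Outside the 8 genes, CESA2 (Os03g0808100) had 2936, 3250 and 3148 normalized reads in pine1 libraries, against 2926, 2976 and 3121 in wild-type libraries. It overlapped between genotypes, with a log2 fold change of 0.05 (limma adjusted p = 0.68). CESA10 (Os12g0477200) had 18.4, 17.2 and 20.3 normalized reads in pine1 libraries, against 10.9, 22.1 and 16.2 in wild-type libraries, and did not pass the test either (log2 fold change 0.22, limma adjusted p = 0.76). Adding CESA2 to the primary wall class left the ratio of pine1 to wild type at 1.79.

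Other genes of wall synthesis were taken as 7 lists of 42 genes, of which 38 were tested. In pine1, 5 of them rose, 1 fell and 32 did not pass the test, beside 4.02% higher and 2.44% lower over all genes tested. The lists cover the other CESA genes, the cellulose synthase-like D genes, cellulose assembly and brittle culm genes, UDP-glucose supply, NAC and MYB regulators of the secondary wall, xylan and mixed-linkage glucan synthesis, and lignin enzymes.

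Among 8 NAC and MYB regulators, which switch on secondary wall genes, only MYB46 was called, beside 4.02% higher and 2.44% lower over all genes. MYB46 (Os12g0515300) had 69.6, 49.5 and 62.0 normalized reads in pine1 libraries, against 17.5, 23.1 and 24.8 in wild-type libraries. Its lowest pine1 library was above its highest wild-type library, and it rose with a log2 fold change of 1.43 (SE 0.24, limma adjusted p = 0.0088). The list's median log2 fold change was 0.41, and 6 of its 8 genes had values above 0. In 4 of the 8 the pine1 libraries lay wholly above wild type, beside the 13.5% of all genes. The 3 of these that did not pass the test, picked out after their values were seen, were SWN1, SWN2 and MYB58/63. Their log2 fold changes were 0.47 for SWN1, 0.73 for SWN2 and 0.79 for MYB58/63, with limma adjusted p-values of 0.10, 0.14 and 0.11.

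Of 5 lignin enzymes, 2 rose and none fell, beside 4.02% higher and 2.44% lower over all genes, with a median log2 fold change of 0.36. CAldOMT1 (Os08g0157500), an O-methyltransferase of monolignol synthesis, had 9389, 8289 and 9668 normalized reads in pine1 libraries, against 5323, 6455 and 5667 in wild-type libraries. The genotypes were well apart, with a log2 fold change of 0.65 (limma adjusted p = 0.0019). CAD2 (Os02g0187800), which reduces cinnamyl aldehydes to the alcohols used in lignin, averaged 1582 ± 64.2 normalized reads in pine1 and 1244 ± 55.2 in wild type (SD, n = 3 each), giving a log2 fold change of 0.35 (limma adjusted p = 0.010).

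Of 5 genes of xylan and mixed-linkage glucan, the main non-cellulosic wall sugars of grasses, 1 rose and 1 fell. Over all genes tested, 4.02% were called higher and 2.44% lower. The list had a median log2 fold change of -0.20. IRX9 (Os07g0694400), a glycosyltransferase of xylan backbone synthesis, had 835, 804 and 854 normalized reads in pine1 libraries, against 1135, 1350 and 1104 in wild-type libraries. All pine1 libraries lay below wild type, and IRX9 fell with a log2 fold change of -0.52 (limma adjusted p = 0.0070). Its relative IRX9L (Os01g0675500) averaged 1803 ± 108 normalized reads in pine1 and 1476 ± 76.1 in wild type (SD, n = 3 each), giving a log2 fold change of 0.29 (limma adjusted p = 0.033). The IRX9L call was lost in 5 of the 6 fits that left out 1 library, all but the one without pine1 replicate 2, with adjusted p-values up to 0.126. UAM1 (Os03g0599800), picked out after its values were seen, had all pine1 libraries below wild type but did not pass the test. Its log2 fold change was -0.24 (limma adjusted p = 0.090). The authors' deposited table lists UAM1 with a log2 of wild type over pine1 of 0.23 and an adjusted p of 0.0273.

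In the lists nearest to cellulose synthesis itself, 1 gene was called, beside 4.02% higher and 2.44% lower over all genes tested. At those shares, lists of so few genes can hold no call without differing from other genes. None of 8 cellulose assembly and brittle culm genes was called, with a median log2 fold change of 0.01. This list holds BC1, a COBRA-like wall protein, and GLU1, a membrane-bound endoglucanase. GLU1 (Os03g0329500) had 2326, 2521 and 2344 normalized reads in pine1 libraries, against 1856, 1965 and 2167 in wild-type libraries, without overlap. Its log2 fold change of 0.27 just missed the threshold (limma adjusted p = 0.051), and the authors' deposited table lists it with a log2 of wild type over pine1 of -0.26 and an adjusted p of 0.0164. BC10 (Os05g0170000), picked out after its values were seen, went the other way. Its pine1 libraries all lay below wild type, with a log2 fold change of -0.18 (limma adjusted p = 0.22). BC1 had 33.8, 33.3 and 60.9 normalized reads in pine1 libraries, against 50.2, 26.9 and 30.8 in wild-type libraries, with overlap. None of 6 tested genes of UDP-glucose supply (sucrose synthases and UGP1) was called, with a median log2 fold change of 0.06. Of these, SUS2 (Os06g0194900), also picked out after its values were seen, had all pine1 libraries below wild type. Its log2 fold change was -0.29 (limma adjusted p = 0.083). Of 4 tested cellulose synthase-like D genes, the group nearest to CESA in sequence, CSLD4 (Os12g0555600) rose, averaging 4118 ± 145 normalized reads in pine1 and 3378 ± 166 in wild type (SD, n = 3 each), giving a log2 fold change of 0.29 (limma adjusted p = 0.014). CSLD4 missed the threshold once wild-type replicate 2 was left out (limma adjusted p = 0.054).

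**Figure D4:**
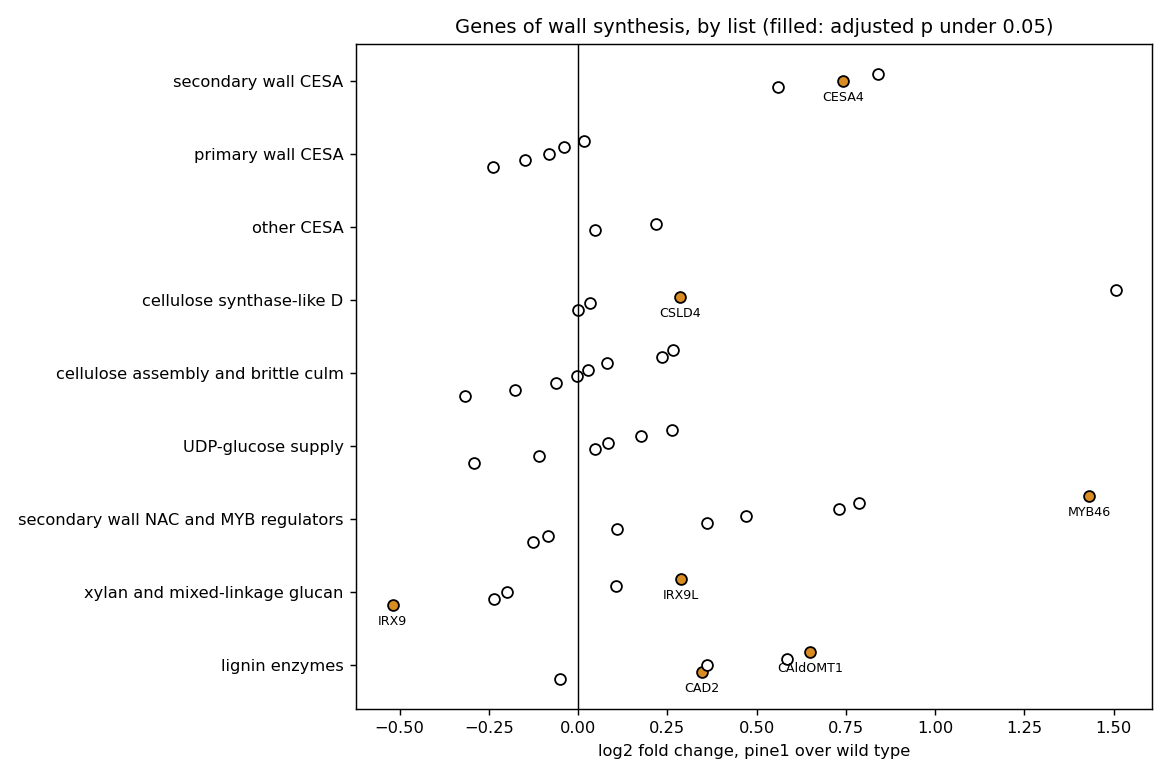
Log2 fold change of pine1 over wild type (horizontal axis) for the tested genes of each wall list; each point is a gene and filled points have an adjusted p under 0.05. The secondary wall CESA genes all lie above 0, IRX9 at -0.52 is the only filled point below 0, and MYB46 at 1.43 is the filled point farthest to the right.

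Some markers of other cells in the sampled piece were also called, where 4.02% of all genes tested were called higher in pine1. The leaf photosynthesis list summed to 56246 to 64271 normalized reads in pine1 and 43947 to 52125 in wild type, and 2 of its 4 genes rose. The list of dividing-cell genes summed to 19436 to 21226 normalized reads in pine1 and 17835 to 19287 in wild type, and 2 of its 3 genes rose. Root markers summed to 199 to 447 normalized reads in pine1 and 401 to 640 in wild type, sums that overlapped, with 1 of 4 called higher and LSI2 at 0 in 2 wild-type libraries. Their directions differed, so the sum hides them. The log2 fold change was -1.18 for RCc3, the most abundant, against 1.52 for NRT2.3, 0.69 for LSI1 and 3.78 for LSI2. Only NRT2.3 was called. The phloem marker SUT1 lay between 870 and 967 normalized reads in pine1 and between 955 and 1003 in wild type, and was not called. The part of these cell types, and of the meristem, in the CESA values was not tested.

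Finally, the 5 genes whose profile over the 6 libraries was nearest to the mean of the secondary wall CESA genes were named by the root mean square difference in centred log2 values. Among 18032 candidates with a mean of at least 100 normalized reads, the median difference was 0.430. The nearest was Os04g0636400, named a nuclease PA3 in the authors' deposited table, at 0.0599. It had 282, 244 and 380 normalized reads in pine1 libraries, against 178, 186 and 186 in wild-type libraries. Its likeness to the secondary wall genes, with pine1 replicate 3 highest, follows from how it was picked. Next came Os12g0577200 at 0.0606, Os10g0568100 at 0.0968, Os12g0208900 at 0.104 and Os01g0804400, a cytochrome P450 gene, at 0.113. The difference from the class mean was 0.0989 for CESA4, 0.155 for CESA7 and 0.179 for CESA9. These 3 genes make up that mean, so their differences cannot be set beside those of other genes. MYB46, whose mean is below the limit of 100 normalized reads for candidates, was at 0.404. This measure also grows where a gene changes more than the class, as MYB46 did (log2 fold change 1.43).

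**Figure D5:**
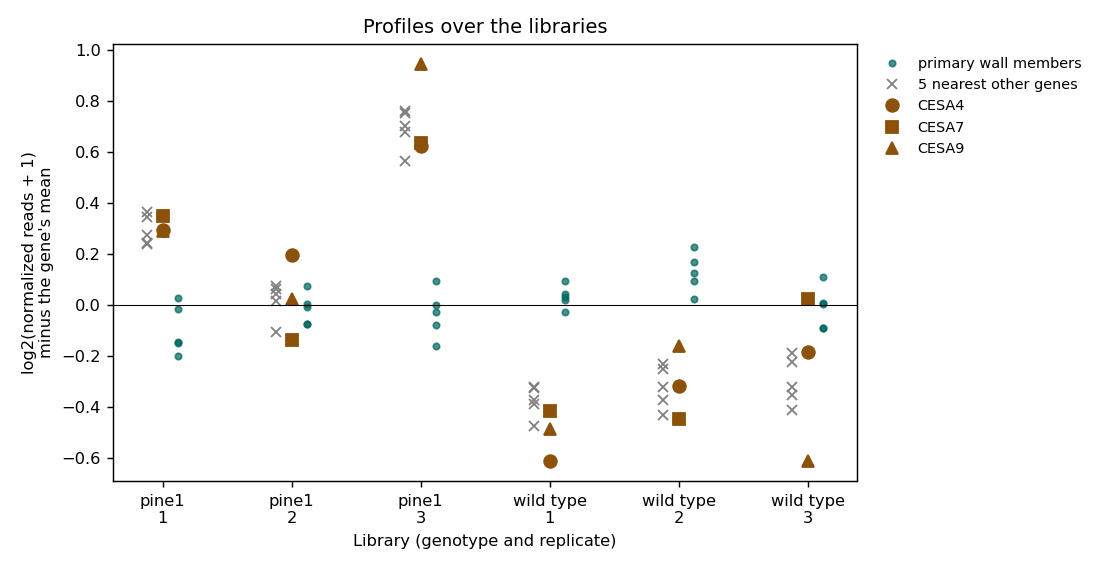
Log2(normalized reads + 1) minus each gene's own mean (vertical axis) in the 6 libraries, pine1 left and wild type right, for the 3 secondary wall genes (large symbols), the 5 primary wall genes (dots) and the 5 nearest genes (crosses). CESA4 and CESA9 lie above 0 in each pine1 library and below 0 in each wild-type library, and the primary wall genes stay between -0.20 and 0.23.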

How the data were processed

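Total RNA of 3 pine1 and 3 wild-type rice samples was enriched with oligo(dT) and sequenced, per the labels' protocols. FastQC, STAR, HTSeq, DESeq2 and the build IRGSP-1.0 are named in the submitters' processing notes, without versions. The deposited signal values are normalized reads per gene, per the file headers. They equal whole reads divided by 1 factor per library: 100% of values came out whole within 0.001, which gave the recovered reads used for filtering, edgeR and DESeq2. The authors' deposited table of 1962 genes gives log2 ratios of wild type over pine1 and p-values, and is quoted only where named. Genes passing filterByExpr (minimum count 10) on recovered reads were tested with limma 3.58.1 (R 4.3.3) on log2(normalized reads + 1), with an intensity trend and Benjamini-Hochberg adjustment over 24149 genes, at 0.05. The fit was tested on simulated data. Fold changes on this scale understate changes of low genes. Alternatives were pseudocounts 0.5 and 5, no filter, a filter of 5 CPM, upper-quartile scaling, edgeR 4.0.16, DESeq2 1.42.0, a replicate block and each library left out. Sums and figures used Python 3.11.15, pandas 2.3.3 and matplotlib 3.10.9.

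The members and gene lists were chosen with earlier results of these data known. Genes named are the 8 members, the other CESA genes, list members that were called, and the 5 nearest profiles. Further genes are said to be picked after their values were seen, or serve as examples of lists. Loci were taken by identifier. The 56 loci of the other lists and markers were assigned from general knowledge, and 15 of them, including every wall list gene called, are named in the authors' deposited table. Of the rest, 20 share only a chromosome with that name in a RefSeq table of another assembly, ASM3414082v1, 20 have no name in either table, and 1 (C3H1, a lignin list gene that was not called) is on another chromosome there, so list medians and counts rest partly on unchecked loci. That RefSeq table places all 8 gene names on the chromosome given in the identifier. The sources used here do not say whether counting used strand. Replicates differed by more than sampling noise, with chi-square per degree of freedom of 6.47 to 10.3. The loci taken for CESA11, CSLD5 and SUS3 were absent from the authors' normalized table, and UGP2 had too few reads to be tested.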

Additional observations from a re-analysis of the deposited data

How the results depend on the processing

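CESA4 was called higher in pine1 under all 14 alternatives, the only secondary wall gene called in any of them, with log2 fold changes of 0.62 to 0.84. Primary wall genes called lower numbered 0 in the reported fit, 1 (CESA6) under DESeq2, 1 with the replicate block, and 0 to 1 when each library was left out in turn. The sign turned for 3 genes that were called under no setting: with 1 library left out, log2 fold changes ran from -0.025 to 0.067 for CESA3, from -0.095 to 0.024 for CESA5 and from -0.028 to 0.45 for CESA10. Over all genes, 570 to 760 were called higher and 266 to 550 lower with 1 library left out, against 970 and 589. The counts moved by over 1.5 times without wild-type replicate 1 (570 higher, 266 lower), wild-type replicate 2 (272 lower) or wild-type replicate 3 (388 lower). In the other wall lists, counts were recomputed by a choice made after seeing the data, against 5 higher and 1 lower in the reported fit. With 1 library left out, 3 to 6 genes were called higher and 1 to 2 lower. DESeq2 called 7 higher and 2 lower, and the replicate block called 7 higher and 1 lower. The class ratio of pine1 over wild type ran from 1.64 to 1.96, and the class difference in log2 from 0.63 to 0.99. The cause of these shifts was not tested.

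Deviations from the genotype means correlated at 0.055, 0.022 and 0.134 between libraries of the same replicate number, for numbers 1, 2 and 3. Not every library correlated best with its own number. Deviations centred on only 3 libraries per genotype cannot correlate freely, so these values cannot exclude a pairing by number. On recovered reads, edgeR called 979 genes higher and 589 lower. With the block, 1195 genes were called higher and 799 lower. Dividing reads by coding length was not run. A filter of 5 CPM left out CESA7 and CESA9, whose few reads limit what can be detected.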

Other observations

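Members of other cellulose synthase-like families also differed between genotypes. The authors' deposited table names 10 genes with an OsCsl symbol. They were picked after their values were seen, and that table was itself chosen by a test on these libraries, so the counts are not independent evidence. In the limma fit over all genes, 7 of the 10 fell in pine1, 1 rose and 2 did not pass the test, beside 2.44% lower and 4.02% higher over all genes.

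Among the genes named in that table, those that fell were both OsCslA genes, 3 of 4 OsCslC genes and both OsCslE genes. Members of these families outside that table were not counted, so the shares do not describe whole families. CslA proteins make the backbone of mannans, and CslC proteins are known in Arabidopsis for the glucan backbone of xyloglucan. OsCslA1 (Os02g0192500) averaged 4539 ± 167 normalized reads in pine1 and 6078 ± 319 in wild type (SD, n = 3 each), giving a log2 fold change of -0.42 (limma adjusted p = 0.0021). OsCslC10 (Os07g0124750) averaged 597 ± 166 normalized reads in pine1 and 1103 ± 142 in wild type (SD, n = 3 each), giving a log2 fold change of -0.91 (limma adjusted p = 0.015). OsCslE1 (Os09g0478100) averaged 606 ± 14.1 normalized reads in pine1 and 819 ± 13.6 in wild type (SD, n = 3 each), giving a log2 fold change of -0.44 (limma adjusted p = 0.0045).

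The gene that rose was OsCslF1 (Os07g0553000), of the family that makes mixed-linkage glucan in grasses. It averaged 45.6 ± 4.26 normalized reads in pine1 and 14.1 ± 7.81 in wild type (SD, n = 3 each), giving a log2 fold change of 1.74 (limma adjusted p = 0.021). OsCslF1 rested on 133 recovered reads in pine1 and 46 in wild type, each summed over 3 libraries. CSLF6 (Os08g0160500), of the same family, averaged 1964 ± 162 normalized reads in pine1 and 2257 ± 247 in wild type (SD, n = 3 each). Its log2 fold change was -0.20, and it did not pass the test (limma adjusted p = 0.26). OsCslC3 and OsCslH1 did not pass the test.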
